A study of Nothobranchius furzeri with 16 samples.

Results

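The genes described here are 220 of the 26739 genes counted in brains of the killifish Nothobranchius furzeri, an annual fish, and their level stepped down at both intervals between the 3 adult ages sampled. A gene entered the set if its lowest library at 5 weeks post hatching (wph) lay above its highest library at 12 wph, its lowest library at 12 wph lay above its highest library at 39 wph, and its mean at 5 wph was 3 CPM or more, where CPM is the read count per 1000000 counts of its library. Of the 15737 genes that reached this floor, 228 met these terms, or 1.45%. The rule leaves out 12 identifiers, 8 of which met the terms. The mirrored rule, with the 3 ages stepping up, was met by 94 of 15784 genes, or 0.596%. The members were chosen by their CPM in the 12 libraries of this strain, MZM-0410, and the falls with age are given as a description with no test.

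Total RNA of brains was sequenced in 16 libraries, 4 for each of 4 groups, each taken here as a single fish. MZM-0410, a strain derived from wild fish, was sampled at 5 wph, around sexual maturity, at 12 wph as adults and at 39 wph as old fish. GRZ, an inbred and shorter-lived laboratory strain, was sampled at 5 wph and did not enter the rule. No group received a treatment, feeding and time of day at killing were held alike, and the labels do not give the sex.

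The adult brain of teleost fish keeps many more zones with dividing radial glia than that of mammals and continues to make neurons while the animal grows. Dividing progenitors use the machinery of DNA replication and mitosis, their daughters express growth cone and neuronal identity genes, and differentiated neurons then depend on mitochondria, protein synthesis and transmitter systems. In whole tissue, fewer cells of a type and less RNA per cell cannot be told apart, and this holds for every value below.

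Sequencing depth, as mega (M) counts assigned to genes in a library, ranged from 3.93 to 8.24 in the group at 5 wph, from 5.48 to 9.45 in that at 12 wph, from 8.27 to 8.74 in that at 39 wph and from 8.80 to 10.6 in GRZ, so the group with the highest levels of the members had the lowest depth. Depth was not tested as a part of the falls. Replicate 4 of GRZ stood apart from the other GRZ libraries, with a chi-square per degree of freedom of 7.67 to 8.29 against them, and 4.00 to 6.70 among the others. Named marker genes of neurons summed to 4575 to 4818 CPM at 5 wph, 4530 to 4863 at 12 wph, 3664 to 4148 at 39 wph and 4439 to 4538 in GRZ. Those of radial glia and astrocytes summed to 3596 to 4144, 3607 to 5088, 2885 to 3268 and 3226 to 3870 CPM in the same order, so that 39 wph lay below the younger MZM-0410 groups. Those of endothelium and pericytes summed to 817 to 892, 938 to 1015, 884 to 1007 and 964 to 1153 CPM, and 5 wph lay below 12 wph and GRZ. Those of oligodendrocytes and myelin summed to 3059 to 3686, 2610 to 4375, 1702 to 2244 and 2721 to 3230 CPM, and those of microglia to 171 to 209, 171 to 208, 237 to 282 and 186 to 218 CPM. Only 3 of 16 skeletal muscle markers had a named gene, and these summed to 26.8 to 137, 7.13 to 116, 4.00 to 7.11 and 101 to 178 CPM. The 1 named gene of retina and pineal had up to 0.763, 10.7, 1.38 and 98.9 CPM. The part of these differences in the results was not tested.

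The members together made up 21208 to 23006 CPM at 5 wph, 17978 to 18377 CPM at 12 wph, 14078 to 15682 CPM at 39 wph and 19092 to 21647 CPM in GRZ. Their median log2 difference was -0.32 from 5 to 12 wph, -0.35 from 12 to 39 wph and -0.65 from 5 to 39 wph, where the median over all genes at 3 CPM was -0.04, -0.01 and -0.03. Over the whole span the members ranged from -2.94 to -0.19. There were 53 members with a difference beyond 1 log2 unit, of which 15 went beyond 2, and 57 with less than 0.5. The later step was the larger one in 133 members and the earlier step in 87. The interval from 12 to 39 wph was longer than that from 5 to 12 wph, so the size of a step is not a rate. The median SD between replicates was 7.32% of the mean at 5 wph, 5.89% at 12 wph and 7.70% at 39 wph, where all genes at 3 CPM had 10.4%, 10.2% and 9.90%. In the GRZ libraries, which the rule did not use, it was 11.2% in the members and 10.4% in all genes.

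Of the 220 members, 164 carried the name of 1 human orthologue, and these symbols are used here. Names were held for 5369 genes of the table, or 20.1%, and were taken from the study's supplementary tables, used here in shortened form. The study assigned orthologues mainly by the highest protein alignment score, so genes sharing a symbol, called copies here, may be related genes instead. Named genes met the rule more often, 172 of 4988 or 3.45%, than unnamed genes, 56 of 10749 or 0.521%. The counts over gene lists below describe named genes only. The 3.45% includes the 8 left-out identifiers that met the rule, and the numbers of members per list do not include them. Of the members, 56 were on at least 1 of the gene lists drawn up from textbook roles and 36 more were on 6 lists written after the members had been seen. The textbook lists were not blind to the data either, since earlier results of these data were known.

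Taken over the members of each gene list, genes of cell division had the deepest median fall. Of 41 named genes of cell cycle and mitosis at 3 CPM or more, 39 had a lower mean at 39 than at 5 wph, where over all genes at 3 CPM it was 54.9% and over named genes 56.7%, and 11 were members: ASPM, CCNB1, CCNB2, CDC25B, CENPE, KIF20A, LMNB1, NUF2, PLK1, RACGAP1 and TPX2. At the median member, 53.3% of the 5 wph level was left at 12 wph and 23.8% at 39 wph. The 41 genes had a median log2 difference of -1.26 between 5 and 39 wph, and over all named genes of a list only the 3 skeletal muscle markers, none of them a member, had a deeper one, at -4.00. The 11 members summed to 231 to 272 CPM at 5 wph, 136 to 175 at 12 wph, 94.3 to 109 at 39 wph and 192 to 242 in GRZ.

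TPX2, which promotes microtubule assembly in the mitotic spindle, measured 14, 18.2, 15.1 and 18.1 CPM at 5 wph, 6.03, 6.67, 7.13 and 10.4 CPM at 12 wph and 3.5, 3.99, 3.32 and 4.12 CPM at 39 wph. In GRZ it measured 26.1, 24.2, 25 and 24.8 CPM. Every GRZ library lay above every MZM-0410 library, including those of the same age. PLK1, a kinase that drives entry into and exit from mitosis, measured 13.7, 17.0, 12.5 and 10.9 CPM at 5 wph, 6.03, 7.62, 7.13 and 7.61 CPM at 12 wph, 2.77, 3.63, 3.10 and 2.17 CPM at 39 wph and 9.77, 6.52, 11.4 and 8.05 CPM in GRZ. Its GRZ libraries spanned the gap between the groups at 5 and 12 wph and overlapped both.

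ASPM, a spindle pole protein needed by dividing neural progenitors, measured 26.2, 34.1, 36.9 and 29.6 CPM at 5 wph, 13.0, 15.4, 17.1 and 22.0 CPM at 12 wph, 7.59, 10.8, 6.76 and 5.15 CPM at 39 wph and 26.5, 20.2, 21.1 and 21.6 CPM in GRZ. RACGAP1, which acts in cytokinesis, measured 8.90, 9.34, 11.2 and 7.18, then 3.65, 4.13, 3.29 and 4.01, then 3.01, 1.69, 2.06 and 1.94 CPM in MZM-0410, and 6.36, 4.61, 5.17 and 3.36 CPM in GRZ. In GRZ, ASPM overlapped the groups at 5 and 12 wph, and RACGAP1 lay below all libraries at 5 wph. The 2 genes differed in the shape of the fall: ASPM changed by -0.91 log2 units from 5 to 12 wph and by -1.16 from 12 to 39 wph, and RACGAP1 by -1.28 and then -0.79. KIF20A, a kinesin of the central spindle, went the way of ASPM, with -0.92 and then -1.35, and had 7.89 to 11.4 CPM at 5 wph and 1.45 to 2.66 CPM at 39 wph. CENPE, the kinesin of the kinetochore, had a smaller fall, with 26.7 to 38.2 CPM at 5 wph, 18.6 to 25.1 CPM at 12 wph and 15.2 to 18.3 CPM at 39 wph. CCNB2, a mitotic cyclin, and LMNB1, lamin B1 of the nuclear envelope, kept 44.3% and 55.5% of their 5 wph means at 39 wph. Members outside the list and picked out after their values were seen include the mitotic kinesins KIF14, at 7.40 to 8.64 CPM at 5 wph and 1.03 to 2.30 CPM at 39 wph, and KIF2C, at 6.10 to 7.56 and 0.915 to 2.18 CPM.

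**Figure D1:**
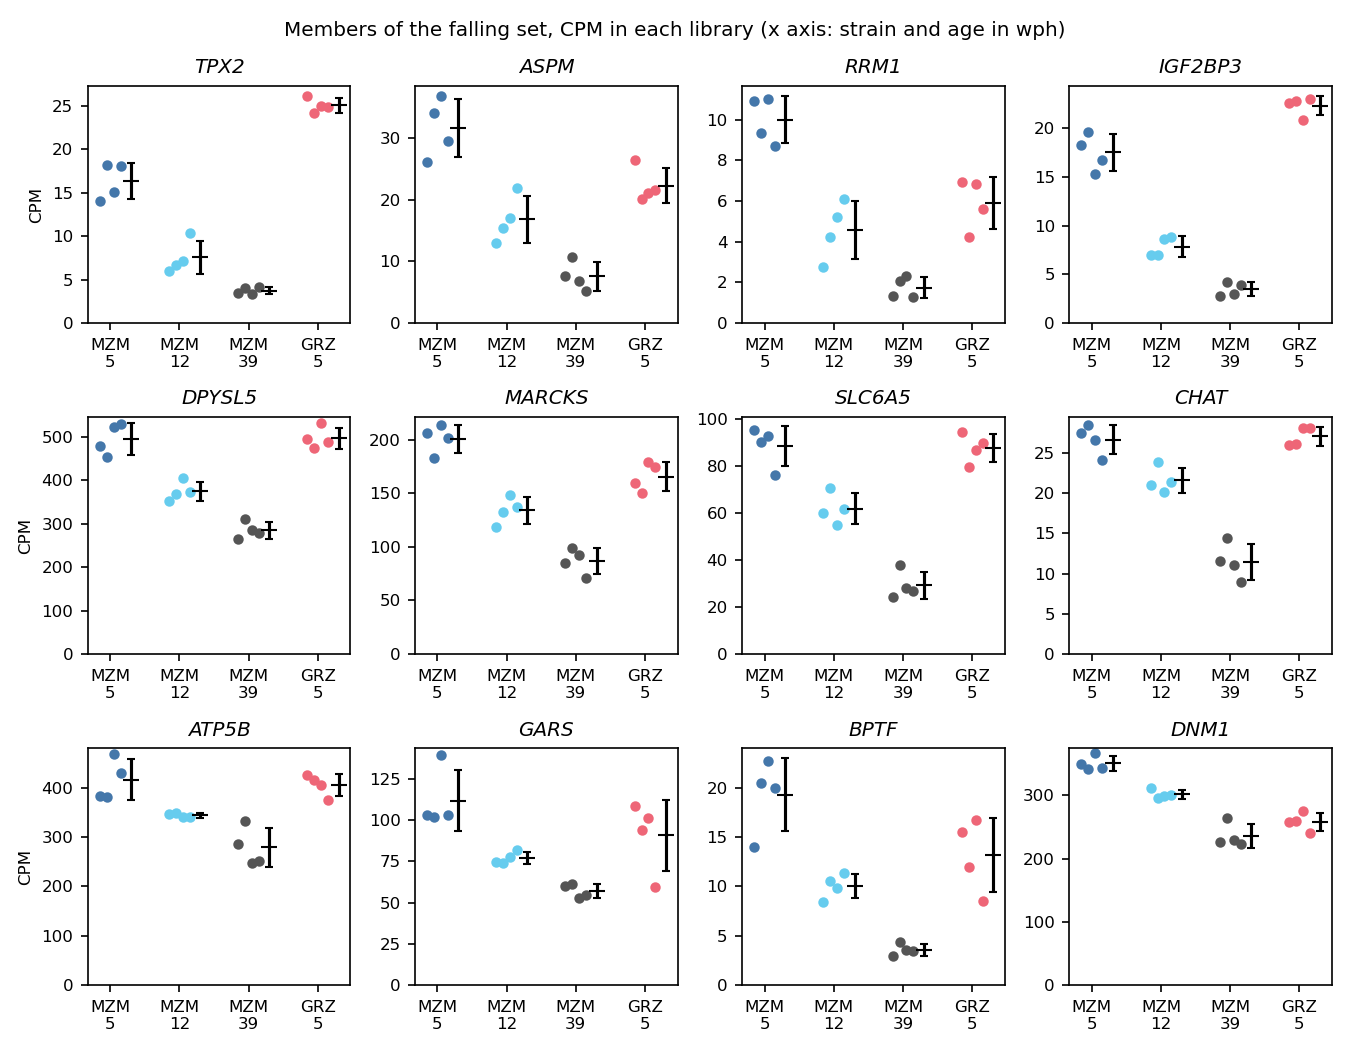
CPM of 12 members of the falling set in each library, by strain and age in wph. Points are single libraries and the bar beside them is the mean ± SD (n = 4). The 3 MZM-0410 groups do not overlap in any panel, as the rule requires. GRZ lies above them all for TPX2 (24.2 to 26.1 CPM), inside the 5 wph range for CHAT and SLC6A5, and across the 39 wph range for DNM1 (240.1 to 276 CPM).

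DNA replication gave 4 members among 32 named genes at 3 CPM, of which 29 had a lower mean at 39 than at 5 wph. RRM1, the large subunit of the enzyme that makes deoxyribonucleotides, had the deepest fall of the 4, with 10.9, 9.34, 11 and 8.70 CPM at 5 wph, 2.74, 4.23, 5.21 and 6.09 CPM at 12 wph and 1.33, 2.06, 2.29 and 1.26 CPM at 39 wph. Its GRZ libraries, at 6.93, 4.21, 6.86 and 5.59 CPM, all lay below the 5 wph group and overlapped the 12 wph group. MCM4, a subunit of the replicative helicase, measured 17.8, 15.4, 19.0 and 18.9 CPM at 5 wph, 7.49, 10.8, 10.1 and 10.8 CPM at 12 wph, 5.30, 4.60, 5.39 and 3.09 CPM at 39 wph and 19.1, 14.8, 15.3 and 8.39 CPM in GRZ, where replicate 4 had the lowest value. MCM2, of the same helicase, changed by -1.24 log2 units between 5 and 39 wph and UHRF1, which passes DNA methylation on to daughter strands, by -1.87. At the median of the 4 members, 26.6% of the 5 wph level was left at 39 wph.

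Chromatin genes stepped down by less. Among 42 named genes for histones and chromatin, 39 had a lower mean at 39 wph and 7 were members, with a median of 82.0% of the 5 wph level left at 12 wph and 67.9% at 39 wph. CHD4, the ATPase of the NuRD complex, measured 243, 219, 261 and 250 CPM at 5 wph, 200, 208, 217 and 216 at 12 wph, 166, 180, 177 and 179 at 39 wph and 332, 309, 310 and 209 CPM in GRZ. Replicates 1 to 3 of GRZ lay above all libraries at 5 wph and replicate 4 lay below them. HDAC1, the histone deacetylase found in the same complex, kept 68.3% of its 5 wph mean at 39 wph, and SMARCA5, the ATPase of ISWI complexes, 62.6%. HELLS, a remodelling ATPase linked to DNA methylation, had a deeper fall to 41.0%.

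A list of chromatin remodelling genes written after the members had been seen held 6 members among 24 named genes at 3 CPM. BPTF, the large subunit of the NURF complex, stood out with 14, 20.5, 22.7 and 20.0 CPM at 5 wph, 8.40, 10.6, 9.87 and 11.3 CPM at 12 wph and 2.89, 4.35, 3.55 and 3.43 CPM at 39 wph, or 18.4% left. Its GRZ libraries, at 15.6, 11.9, 16.7 and 8.50 CPM, spread across the 5 and 12 wph groups. The others on that list kept between 41.0% (HELLS) and 78.7% (SMARCD1) of their 5 wph means.

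Genes of neural progenitors and immature neurons gave 10 members among 50 named genes at 3 CPM, 45 of which had a lower mean at 39 wph: BCL11B, DLL1, DPYSL3, DPYSL5, EBF3, FABP7, HES6, IGF2BP3, MARCKS and MEX3B. The median member kept 74.1% of its 5 wph level at 12 wph and 54.8% at 39 wph. IGF2BP3, an RNA binding protein of embryonic and proliferating cells, measured 18.3, 19.7, 15.3 and 16.8 CPM at 5 wph, 6.94, 6.98, 8.63 and 8.86 at 12 wph, 2.77, 4.23, 2.98 and 3.89 at 39 wph and 22.6, 22.8, 20.9 and 23.0 CPM in GRZ. Every GRZ library lay above every MZM-0410 library, as for TPX2. DLL1, a Notch ligand on cells leaving the progenitor state, measured 10.2, 11.2, 13.2 and 13.5 CPM at 5 wph, 5.30, 6.77, 7.13 and 7.06 at 12 wph, 2.41, 4.23, 3.44 and 2.63 at 39 wph and 13.7, 9.93, 12.7 and 13.4 CPM in GRZ, the last overlapping the 5 wph group. HES6, which promotes neuronal differentiation, took most of its fall early, by -0.71 log2 units to 12 wph and -0.23 after.

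MARCKS, an actin-binding substrate of protein kinase C that is abundant in growth cones, measured 206, 183, 213 and 202 CPM at 5 wph, 118, 133, 148 and 137 CPM at 12 wph, 85.3, 99.2, 92.6 and 70.9 CPM at 39 wph and 159, 150, 179 and 174 CPM in GRZ. Each GRZ library was above all libraries at 12 wph and below all at 5 wph. FABP7, the brain fatty acid binding protein and a marker of radial glia, measured 369, 361, 390 and 390 CPM at 5 wph, 357, 294, 263 and 243 at 12 wph, 182, 236, 175 and 137 at 39 wph and 424, 342, 384 and 289 CPM in GRZ. At 12 wph replicate 1 came near the 5 wph level, and the GRZ libraries were spread over both groups. It was the only member among 11 named markers of radial glia and astrocytes at 3 CPM, 7 of which had a lower mean at 39 wph.

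All 5 collapsin response mediator proteins, cytosolic proteins that couple guidance signals to microtubules in growing axons, had a gene in the set. The family was chosen after the members had been seen, and 7 named genes stand for its 5 symbols. Of these genes 5 were members, and all 7 had a lower mean at 39 wph, the 5 members by the rule. DPYSL5 measured 479, 453, 522 and 530 CPM at 5 wph, 352, 369, 405 and 372 CPM at 12 wph, 265, 311, 285 and 279 CPM at 39 wph and 496, 475, 531 and 487 CPM in GRZ. DPYSL3 measured 557, 541, 589 and 581, then 444, 469, 471 and 497, then 332, 383, 390 and 359 CPM in MZM-0410, and 542, 505, 582 and 535 CPM in GRZ. In both genes the GRZ libraries overlapped the 5 wph group and lay above the 12 wph group. The log2 difference between 5 and 39 wph was -0.95 in DPYSL4, -0.83 in CRMP1, -0.80 in DPYSL5, -0.67 in DPYSL2 and -0.63 in DPYSL3. Reads that fit more than 1 copy of a family could have been lost or assigned to either, which leaves the value of any 1 copy uncertain.

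The wider list of axon growth and guidance genes held 4 members among 49 named genes, namely CRMP1, DPYSL2 and the semaphorin receptors PLXNA4 and PLXNB1. PLXNA4 kept 72.4% and PLXNB1 74.8% of the 5 wph mean at 39 wph.

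Genes tied to neuronal identity, mostly transcription factors, were on a list written after the members had been seen. They gave 13 members among 25 named genes, with MAB21L1 and MAB21L2 among the 13. All 25 had a lower mean at 39 wph, the 13 members by the rule. LHX5, a LIM homeobox factor of several brain regions, was the human name of 2 genes, both in the set. The first copy (Nfu_g_1_000229) measured 61.3, 71.7, 66.7 and 64.6 CPM at 5 wph, 51.1, 48.6, 52.8 and 53.0 at 12 wph, 43.0, 41.7, 41.0 and 39.0 at 39 wph and 74.8, 82.9, 67.0 and 78.6 CPM in GRZ, where the values overlapped 5 wph and lay above 12 wph. The second (Nfu_g_1_005469) measured 16.5 to 21.6, 14.1 to 16.2 and 10.3 to 11.7 CPM in MZM-0410 and 16.9 to 20.8 CPM in GRZ. Of the others, PAX2, a factor of the midbrain and hindbrain, kept 56.2%, TFAP2A, known from neural crest, 62.3%, and POU3F1, a POU factor of neurons and glia, 49.1% of the 5 wph mean at 39 wph. The median of the 13 members was 77% at 12 wph and 61.4% at 39 wph.

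Members that mark differentiated neurons had the larger step between 12 and 39 wph, as 133 of the 220 members did. That interval was also the longer one. SLC6A5, the neuronal glycine transporter GlyT2 that supplies glycine to terminals of inhibitory neurons of the hindbrain, measured 95.6, 90.3, 92.7 and 76.4 CPM at 5 wph, 59.9, 70.8, 54.8 and 61.9 CPM at 12 wph, 24.3, 37.7, 28.1 and 26.9 CPM at 39 wph and 94.5, 79.8, 87.0 and 89.8 CPM in GRZ. CHAT, the enzyme that makes acetylcholine, measured 27.5, 28.4, 26.6 and 24.1 CPM at 5 wph, 21.0, 23.8, 20.1 and 21.3 at 12 wph, 11.6, 14.4, 11 and 8.92 at 39 wph and 26.0, 26.1, 28.1 and 28.1 CPM in GRZ. All GRZ values of both genes were within the range at 5 wph. From 5 to 12 wph SLC6A5 changed by -0.52 log2 units and CHAT by -0.30, and from 12 to 39 wph by -1.08 and -0.91. These were the only members among 21 named genes of transmitter synthesis and uptake, a list written after the members had been seen. All 21 had a lower mean at 39 than at 5 wph, SLC6A5 and CHAT by the rule.

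NEFM, the middle neurofilament subunit of large axons, had the same late fall, with 237, 265, 240 and 260 CPM at 5 wph, 224, 212, 197 and 197 at 12 wph, 118, 137, 130 and 101 at 39 wph and 275, 247, 231 and 198 CPM in GRZ, across the groups at 5 and 12 wph. ENO2, the neuronal enolase, kept 76.3% of its 5 wph mean at 39 wph. These 2 were the members among 20 named neuron markers at 3 CPM, 18 of which had a lower mean at 39 wph, with a median log2 difference of -0.37. None of 40 named genes of synaptic transmission was a member, and 16 of them had a lower mean at 39 wph.

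CNP, a myelin enzyme, was the only member among 15 named markers of oligodendrocytes and myelin. It measured 74.5, 65.5, 72.8 and 77 CPM at 5 wph, 44.9, 43.1, 44.4 and 57.0 CPM at 12 wph, 31.5, 42.0, 36.3 and 33.7 CPM at 39 wph and 83.9, 77.6, 77 and 70.6 CPM in GRZ, which overlapped 5 wph. Of the 15 markers, 11 had a lower mean at 39 wph, with a median log2 difference of 0.04 from 5 to 12 wph and -0.40 from 12 to 39 wph. CNP itself took the larger step early, by -0.61 and then -0.40.

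**Figure D2:**
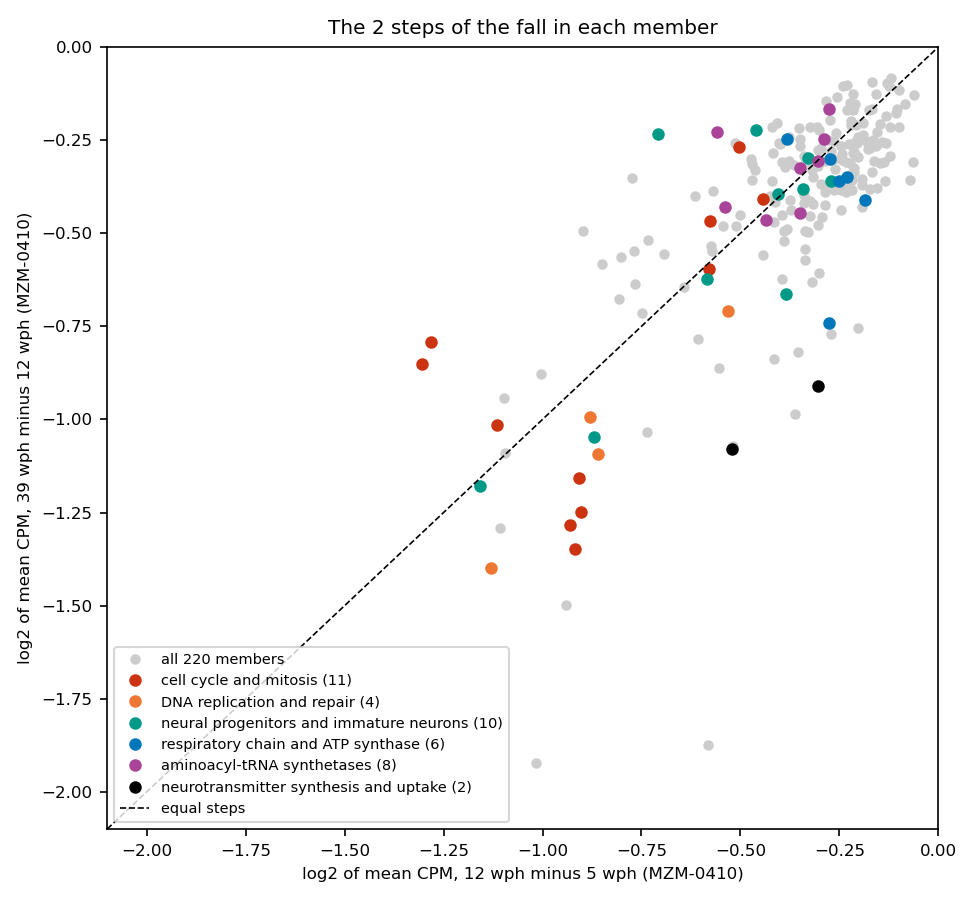
Log2 difference of mean CPM from 5 to 12 wph (horizontal) against that from 12 to 39 wph (vertical) in MZM-0410 for the 220 members, with members of 6 gene lists in colour. Points below the dashed line took the larger step late, as SLC6A5 (-0.52, then -1.08) and CHAT (-0.30, then -0.91) did. Points above it took the larger step early, as RACGAP1 (-1.28, then -0.79) did. The later interval is the longer one, so the steps are not rates.

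The median fall of members for mitochondrial metabolism and transport was close to that of the whole set. It was -0.61 log2 units from 5 to 39 wph in the respiratory chain members, against -0.65 in the whole set. Members of the citrate cycle, fatty acid oxidation and mitochondrial transport list had -0.57. Of 20 named genes of the respiratory chain and ATP synthase, 18 had a lower mean at 39 wph and 6 were members, which kept a median of 83.3% of their 5 wph level at 12 wph and 65.7% at 39 wph. ATP5B, the catalytic beta subunit of ATP synthase, measured 384, 383, 470 and 430 CPM at 5 wph, 348, 349, 340 and 340 CPM at 12 wph, 287, 333, 248 and 252 CPM at 39 wph and 426, 417, 406 and 375 CPM in GRZ. ATP5A1, the alpha subunit, had means of 375 ± 39.1, 320 ± 12.4, 251 ± 38.1 and 382 ± 33.4 CPM in the 4 groups (mean ± SD, n = 4). In both subunits 39 wph replicate 8 was the highest of its group and came close to the 12 wph libraries.

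Both genes named ATP5G3, a membrane ring subunit of the same enzyme, were members. The copy Nfu_g_1_002074 had a late fall, with 73.8, 78.9, 95.0 and 81.4 CPM at 5 wph, 60.5, 72.8, 69.1 and 69.6 at 12 wph, 42.7, 53.5, 36.7 and 30.0 at 39 wph and 88.4, 72.4, 99.8 and 71.6 CPM in GRZ. The copy Nfu_g_1_017674 measured 119 to 140, 99.0 to 118 and 70.7 to 94.3 CPM in MZM-0410 and 133 to 152 CPM in GRZ. UQCRC1, a core subunit of complex III, kept 66.1% of its 5 wph mean at 39 wph.

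The list for the citrate cycle, fatty acid oxidation and mitochondrial transport was written after the members had been seen, so its number of members is not read as a result. All 35 of its named genes had a lower mean at 39 wph, of which 12 were members and lower by the rule. MDH2, mitochondrial malate dehydrogenase, measured 226, 245, 269 and 251 CPM at 5 wph, 204, 225, 221 and 217 at 12 wph, 160, 180, 153 and 150 at 39 wph and 260, 248, 277 and 227 CPM in GRZ. HADHA, of the trifunctional protein of fatty acid oxidation, took the larger step early, by -0.47 and then -0.31 log2 units. The others were ACAA2, C1QBP, CS, GOT2, LRPPRC, SAMM50, SLC25A6, VDAC1, VDAC2 and MDH1, the cytosolic malate dehydrogenase. HSPD1, the mitochondrial chaperonin, and CCT7, of the cytosolic chaperonin, were the members among 31 named chaperones and kept 64.6% and 73.1% of their 5 wph means at 39 wph.

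Aminoacyl-tRNA synthetases, which charge tRNAs with amino acids, gave 8 members among 22 named genes on a list written after the members had been seen: AARS2, FARSB, GARS, MARS, NARS, QARS, SARS and VARS. Of the 22, 21 had a lower mean at 39 wph. GARS measured 103, 102, 139 and 103 CPM at 5 wph, 74.7, 73.7, 77.4 and 82.1 CPM at 12 wph, 60.02, 61.4, 53.0 and 54.3 CPM at 39 wph and 108, 94.1, 101 and 59.5 CPM in GRZ. Replicate 14 at 5 wph was high and replicate 4 of GRZ was low, within the 39 wph range. QARS measured 56.5, 56.4, 73.4 and 55.7, then 40.9, 43.2, 40.7 and 39.4, then 37.2, 36.4, 34.4 and 32.1 CPM in MZM-0410, and 49.0, 50.5, 48.8 and 39.3 CPM in GRZ, with the same 2 libraries at the ends of their groups. Neither the 33 named genes of ribosome biogenesis and translation factors nor the 43 cytosolic ribosomal proteins gave a member. A lower mean at 39 wph was found in 24 and 21 of them, where it was 54.9% over all genes at 3 CPM. Neither count is read as a result.

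The proteasome gave no member either, although 27 of its 28 named genes at 3 CPM had a lower mean at 39 than at 5 wph, with a median log2 difference of -0.35. No member was found among the named markers of microglia (4 genes), endothelium (15), skeletal muscle (3) and erythrocytes (3) at 3 CPM. Over all named genes at 3 CPM, 3.45% met the rule, and at that share lists of these sizes would hold few members or none. The lack of members here, and in the ribosomal, translation and synaptic lists above, is therefore not read as a result. Splicing and nuclear RNA binding held 4 members of 64, extracellular matrix 3 of 42. Of the matrix genes, NCAN, the brain proteoglycan neurocan, kept 77.2%, FN1, fibronectin, 56.3% and POSTN, periostin, 42.0% of the 5 wph mean at 39 wph. ELOVL1, an enzyme that lengthens fatty acids, measured 42.4 to 68.7 CPM at 5 wph, 28.9 to 42.2 CPM at 12 wph, 15.2 to 23.6 CPM at 39 wph and 38.1 to 55.5 CPM in GRZ, and kept 38.1%. PURG, a nucleic acid binding protein of the PUR family, kept 38.8%.

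CLTC and UBA1, among the 8 named members with the most reads, had shallow falls. CLTC, the clathrin heavy chain of endocytic vesicles, measured 579, 574, 610 and 577 CPM at 5 wph, 544, 571, 561 and 563 CPM at 12 wph, 452, 497, 429 and 429 CPM at 39 wph and 614, 583, 625 and 524 CPM in GRZ. UBA1, the enzyme that activates ubiquitin, measured 395, 393, 430 and 405, then 355, 386, 371 and 369, then 314, 348, 311 and 328 CPM in MZM-0410, and 475, 428, 474 and 359 CPM in GRZ. Both changed by under 0.5 log2 units over the whole span, -0.37 in CLTC and -0.32 in UBA1.

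**Figure D3:**
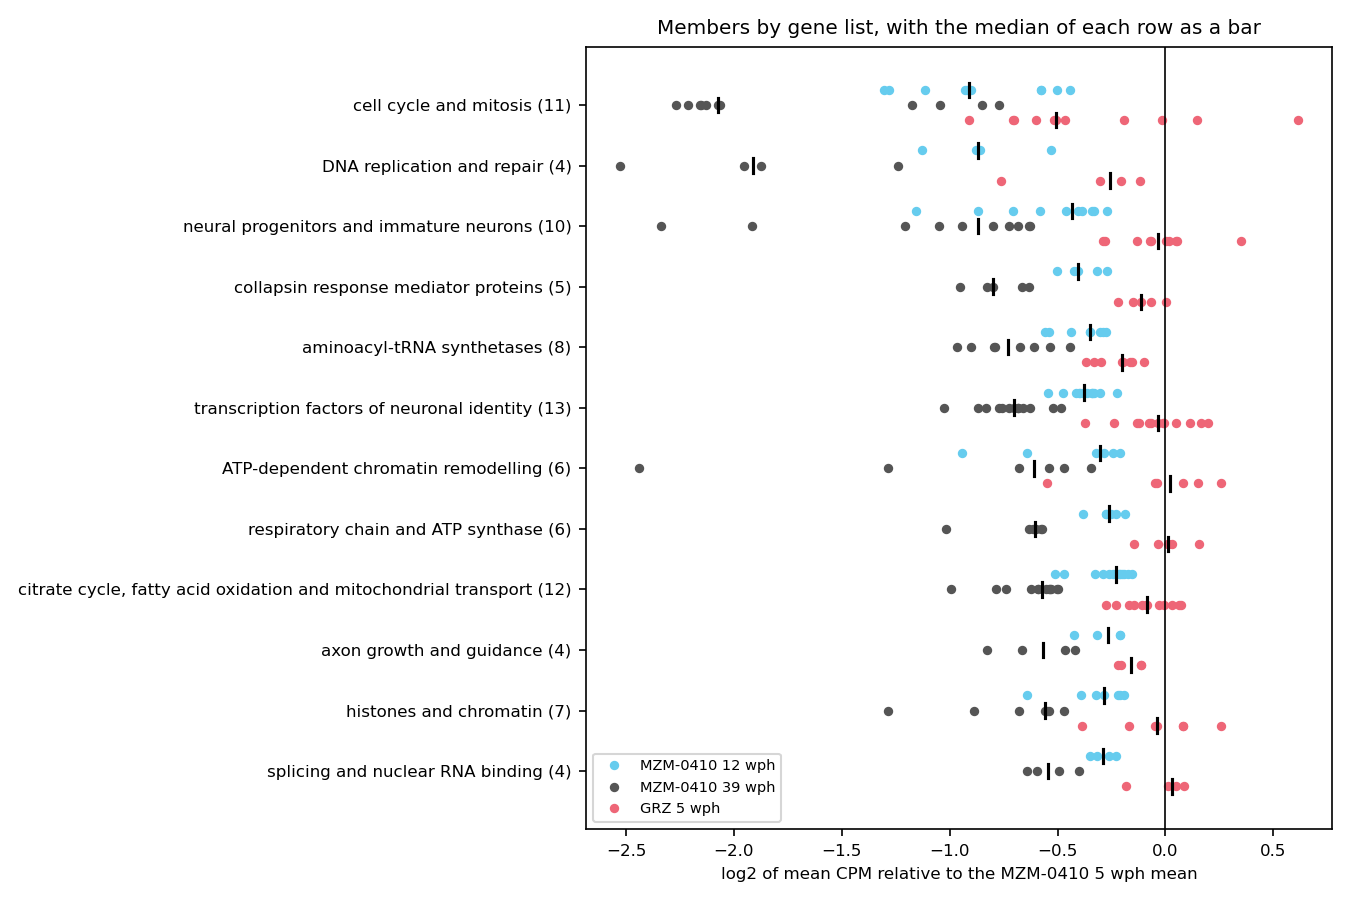
Log2 of mean CPM at 12 wph, at 39 wph and in GRZ relative to the MZM-0410 mean at 5 wph, for members of the gene lists with 4 or more members (number in brackets). Points are members and black bars are medians. The cell cycle median was -0.91 at 12 wph, -2.07 at 39 wph and -0.51 in GRZ, and that of the respiratory chain and ATP synthase -0.26, -0.61 and 0.01.

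At the floor of the rule, the member with the lowest mean at 5 wph was Nfu_g_1_021897 with 3.20 CPM, and the next were Nfu_g_1_020188 with 3.85 and Nfu_g_1_017473 with 4.30 CPM. Just below the floor, Nfu_g_1_007944 had 2.78, Nfu_g_1_005935 had 2.75 and Nfu_g_1_014485 had 1.55 CPM. The narrowest gap between 5 and 12 wph was that of Nfu_g_1_008181, whose lowest library at 5 wph had 616.57 CPM and whose highest at 12 wph had 616.55 CPM. H2AFX, the histone variant of DNA damage foci, missed by 1.7805 against 1.7813 CPM. The narrowest gap between 12 and 39 wph was that of ATP5A1, with 304.09 against 303.96 CPM, and NOTCH1, the receptor for DLL1, just missed it with 120.86 against 121.07 CPM. At these gaps, members and genes just outside the rule differ by less than the spread between replicates.

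In GRZ at 5 wph, most members had a mean between the upper end of the 5 wph range and the lower end of the 12 wph range of MZM-0410. By mean CPM, 28 members were above every 5 wph library, 78 within the range at 5 wph, 45 between the groups at 5 and 12 wph, 53 within the range at 12 wph, 9 between 12 and 39 wph and 7 within the range at 39 wph. The median log2 difference of GRZ was -0.11 from 5 wph, 0.21 from 12 wph and 0.56 from 39 wph, where all genes at 3 CPM had -0.03, 0.01 and 0.01. The 3 comparisons share the GRZ libraries, and the MZM-0410 libraries in them were used by the rule, as the high, the middle and the low group, so each is independent of the choice of members only on the side of GRZ. Choosing genes that are high at 5 wph and low at 39 wph favours GRZ values below the former and above the latter. The 94 genes of the mirrored rule went the other way in the same fits: against 5 wph 31 were higher in GRZ and 1 was lower (edgeR, adjusted p under 0.05), against 12 wph 4 were higher and 21 lower, and against 39 wph 2 were higher and 75 lower. The rule also favours genes with little spread between replicates in the MZM-0410 libraries. At 5 wph the median SD was 7.32% of the mean in the members and 10.4% over all genes at 3 CPM. The p-values below, also those of single genes, do not allow for this choice or for that spread and are a description. Leaving out 1 library does not remove the effect of the choice, since the members stayed those chosen with all 12 MZM-0410 libraries. The counts below, with the shares over all genes beside them, are a description. No difference between strains in the set as a whole is read from them.

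Against MZM-0410 of the same age, 32 members were lower in GRZ and 1, TPX2, was higher at an adjusted p under 0.05 (edgeR quasi-likelihood test, Benjamini-Hochberg adjustment over 17994 genes, two-sided). Of all genes tested, 4.69% were lower and 5.44% higher. All 220 members passed the filter on low counts in each of the 3 comparisons. The number lower was 19 without 5 wph replicate 12, 18 without 5 wph replicate 14 and 19 without GRZ replicate 2. Without GRZ replicate 4 it stayed at 32, and 8 members were higher, and without GRZ replicate 2, 2 were higher. Of the 32 members, 16 were called whichever of the 8 libraries was left out. GRZ libraries lay below all 5 wph libraries in 58 members (10.3% of genes at 3 CPM) and above them in 4 (7.3%).

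The smallest p belonged to DNM1, dynamin 1, which cuts synaptic vesicles from the membrane. It measured 349, 342, 367 and 343 CPM in MZM-0410 at 5 wph and 257, 259, 276 and 240 CPM in GRZ, without overlap, a log2 difference of -0.42 ± 0.06 (SE, edgeR adjusted p = 0.000553). It measured 311, 296, 298 and 300 CPM at 12 wph and 226, 264, 229 and 223 CPM at 39 wph, and only the latter overlap with GRZ. ALDH1L2, a mitochondrial enzyme of folate metabolism, measured 43.5, 41.4, 52.1 and 42.0 CPM at 5 wph and 24.0, 23.3, 29.4 and 29.4 CPM in GRZ, a difference of -0.73 ± 0.11 (edgeR adjusted p = 0.00158). KIF14 measured 7.63, 8.13, 8.64 and 7.40 CPM at 5 wph and 3.18, 2.51, 4.23 and 3.69 CPM in GRZ, a difference of -1.20 ± 0.19 (edgeR adjusted p = 0.00258). In all 3 genes every GRZ library lay below every 5 wph library, and the call held in each of the 8 fits that left out 1 library. The same held for ZBTB47, a zinc finger gene, at -0.61 ± 0.10, for AGAP2 (Nfu_g_1_001394), an Arf GTPase-activating protein, at -0.38 ± 0.07, and for NPAS1, a transcription factor of inhibitory neurons in mouse, at -0.36 ± 0.07 log2 units (edgeR adjusted p = 0.00335, 0.00382 and 0.00616 in turn).

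Genes of cell division called against 5 wph were mostly lower in GRZ. Of the 11 cell cycle members, CENPE, RACGAP1, ASPM and KIF20A were lower in GRZ and TPX2 was higher. Of all 41 named genes on the list 17 were lower and 3 higher, with a median fitted log2 difference of -0.61. Over all genes tested, 4.69% were lower and 5.44% higher. CENPE differed by -0.70 ± 0.14 log2 units (edgeR adjusted p = 0.00976), and TPX2 by 0.62 ± 0.11 (edgeR adjusted p = 0.00407), both in each leave-one-out fit. RACGAP1 differed by -0.89 ± 0.21 (edgeR adjusted p = 0.0202), a call that was lost without 5 wph replicate 12 or 14 (adjusted p up to 0.0642). The calls of ASPM (-0.50 ± 0.12, edgeR adjusted p = 0.0248) and KIF20A (-0.68 ± 0.19, edgeR adjusted p = 0.0434) were lost in 4 and 7 of the 8 fits that left out 1 library. PLK1 at -0.60 ± 0.19, CCNB2 at 0.02 ± 0.13 and LMNB1 at 0.17 ± 0.12 did not pass the test (edgeR adjusted p = 0.0679, 0.958 and 0.428). Members of mitosis outside the list, picked out after their values were seen, were lower as well: CKAP2, a microtubule protein, at -0.56 ± 0.11 and KIF2C at -0.92 ± 0.21 (edgeR adjusted p = 0.00951 and 0.0194), the latter lost without 5 wph replicate 14 (adjusted p = 0.0552).

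Of the DNA replication members, RRM1 was lower in GRZ, with a log2 difference of -0.74 ± 0.19 (edgeR adjusted p = 0.0261), which was lost in 4 of the 8 leave-one-out fits. MCM4 differed by -0.28 ± 0.20 and UHRF1 by -0.18 ± 0.22 and did not pass (edgeR adjusted p = 0.423 and 0.649). Over the list, 8 of 33 named genes were lower in GRZ and none was higher, where 4.69% and 5.44% of all genes tested were. Of the 10 progenitor members only MARCKS was called, at -0.26 ± 0.07 (edgeR adjusted p = 0.0375, lost in 5 of 8 fits), and of the 50 named genes 4 were lower and 1 higher. IGF2BP3, whose GRZ libraries all lay above 5 wph, differed by 0.36 ± 0.11 (edgeR adjusted p = 0.0556). PURG was lower in GRZ, with a log2 difference of -0.83 ± 0.18 (edgeR adjusted p = 0.0146) in every leave-one-out fit. No member was called among the respiratory chain (6), tRNA synthetase (8), collapsin response mediator (5) and transmitter (2) genes, whose medians were 0.03, -0.18, -0.10 and 0.02 in the fit.

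Against 12 wph, 48 members were higher in GRZ and 4 were lower (edgeR, 18092 genes), where 4.71% of all genes were higher and 6.34% lower. The number higher moved with single libraries, to 30 without 12 wph replicate 4, 31 without 12 wph replicate 5, 29 without GRZ replicate 1, 31 without GRZ replicate 2, 28 without GRZ replicate 3 and 99 without GRZ replicate 4. The number lower was 0 without 12 wph replicate 1 or 4 or GRZ replicate 1 or 2, 1 without 12 wph replicate 3 or 5 and 3 without GRZ replicate 3 or 4. GRZ libraries lay above all 12 wph libraries in 67 members (8.96% of genes at 3 CPM) and below them in 7 (9.49%). Of the 48 members, 23 were called whichever library was left out, and of the 4 none. Among the 6 with the smallest p, IGF2BP3 was higher by 1.5 ± 0.12 log2 units (edgeR adjusted p = 3.66e-05) and TPX2 by 1.71 ± 0.15 (edgeR adjusted p = 7.14e-05). CNP was higher by 0.70 ± 0.10, DPYSL5 by 0.40 ± 0.06, the LHX5 copy Nfu_g_1_000229 by 0.55 ± 0.08 and DPYSL4 by 0.34 ± 0.06 (edgeR adjusted p = 0.00162, 0.00171, 0.00221 and 0.00444). All 6 held in each leave-one-out fit. Of the 10 progenitor members 8 were higher, among them DLL1 at 0.90 ± 0.15 and MEX3B, an RNA binding protein, at 0.47 ± 0.08 (edgeR adjusted p = 0.00474 and 0.00539), and over the list 16 of 50 named genes were higher and none lower. Of the 8 tRNA synthetase members none was called. The 4 lower members were Nfu_g_1_003281, which has no name and was singled out after its values were seen, DNM1 at -0.23 ± 0.05, ALDH1L2 at -0.42 ± 0.11 and ZBTB47 at -0.32 ± 0.09 (edgeR adjusted p = 0.0215, 0.0323 and 0.0452).

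Against 39 wph, 184 members were higher in GRZ and none was lower (edgeR, 18086 genes), where 15.4% of all genes were higher and 15.8% lower. No member was lower at an unadjusted p under 0.05 or with DESeq2. Of the 184 members, 164 were called whichever library was left out. No p-value is given for single genes here. The fitted difference was 2.73 ± 0.11 log2 units (± SE) in TPX2 and 2.67 ± 0.14 in IGF2BP3, with every GRZ library above every library at 39 wph. It was 0.80 ± 0.06 in DPYSL5, 1.58 ± 0.12 in SLC6A5, 0.80 ± 0.07 in DPYSL4 and 1.10 ± 0.09 in CNP. GRZ libraries lay above all 39 wph libraries in 178 members (15.3% of genes at 3 CPM) and below them in none (15.9%). The smaller differences included those of DNM1 at 0.13 ± 0.06, ALDH1L2 at -0.12 ± 0.12, ZBTB47 at -0.04 ± 0.11 and NPAS1 at 0.14 ± 0.07.

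**Figure D4:**
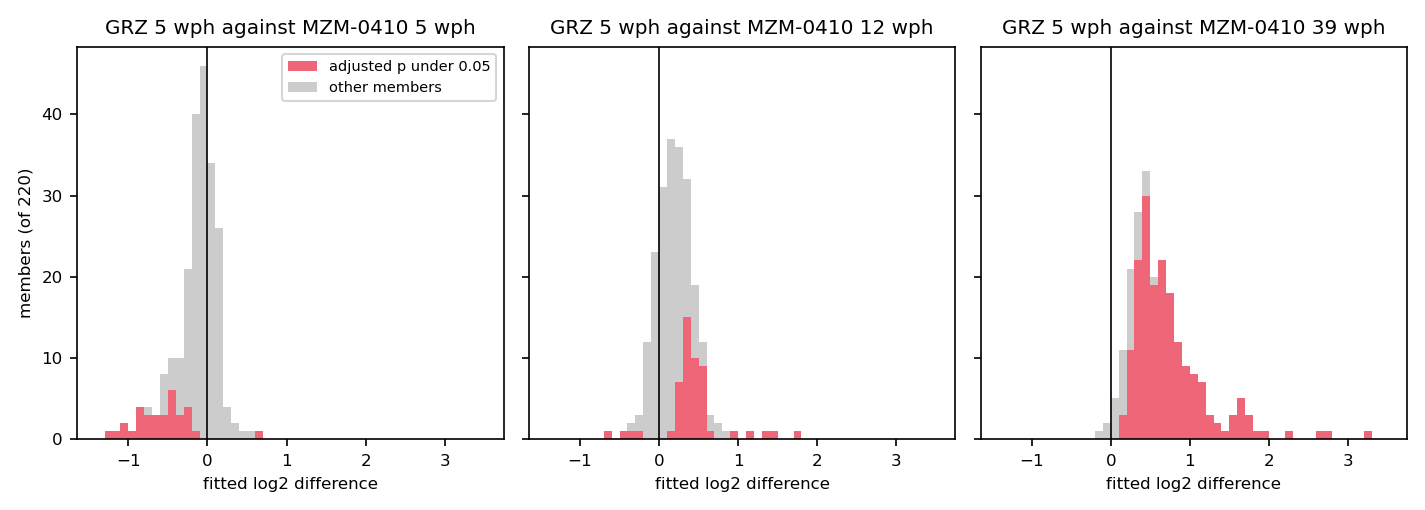
Number of the 220 members by fitted log2 difference of GRZ at 5 wph from MZM-0410 at 5, 12 and 39 wph (edgeR). Members with an adjusted p under 0.05 are in red: 32 lower and 1 higher against 5 wph, 4 lower and 48 higher against 12 wph, and 184 higher against 39 wph. The 3 panels share the GRZ libraries, and the MZM-0410 libraries in them chose the members.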

How the data were processed

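The values are raw counts of reads per gene, deposited by the authors for each of the 16 libraries in a common table. They sequenced ribosome-depleted total RNA as single-end reads, aligned it with TopHat2 2.1.0 to the Nfu_20150522 genome and counted genes with featureCounts 1.5.0 without regard to strand, so a gene and an antisense partner cannot be told apart. The replicates are separate samples of the labels and, by the study's description of its age groups, single fish. The text of the study does not describe the GRZ libraries, which are taken here as single fish too. The study gives 5 fish per age group, and 4 are held here.

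CPM is the count per 1000000 counts of the library, with no pseudocount, and log2 differences with age are between group means. GRZ was compared with each MZM-0410 group in a fit of the 8 libraries concerned, with filterByExpr, TMM scaling and a two-sided quasi-likelihood test (edgeR 4.0.16, R 4.3.3), and p-values were adjusted by Benjamini-Hochberg over all genes tested. The SE was derived from the test, as the absolute fitted log2 difference divided by the square root of the quasi-likelihood F statistic. DESeq2 1.42.0, other scalings and filters, a fit of all 16 libraries and leaving out each library were the alternatives. The fits were tested on simulated counts. Figures were drawn with matplotlib 3.10.9.

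The members and the gene lists were chosen with earlier results of these data known. The text names the 12 named members with the deepest fall from 5 to 39 wph at a mean of 10 CPM or more at 5 wph, the 8 with the most counts, members of the lists (up to 6 per list with values), per comparison with GRZ the 6 lower and 6 higher members with the smallest p, and genes at the edges of the rule. Others were chosen after their values were seen. Names come from pairs of identifiers and human orthologues in the study's supplementary tables, used in shortened form. None of the identifiers was found in the reference gene table at hand, so no sequence is shown, and where tables gave several names to a gene (14 genes) none was used.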

Additional observations from a re-analysis of the deposited data

Results flagged for a closer look

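Among 68 members given values above, both copies counted where 2 share a name, 272 groups of 4 libraries were looked at for a library far from the other 3 (Dixon's test at the 95% level), and 15 were found. Over all 220 members it was 48 of 880 groups, or 5.45%, and chance flags about 1 in 20.

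Replicate 14 at 5 wph was the highest of its group, far above the others, for GARS at 139 CPM, QARS at 73.4 CPM, CLTC at 610.0 CPM, UHRF1 at 15.6 CPM and KIF20A at 11.4 CPM. It was above its group mean in 79.1% of the 220 members and in 53.6% of the other genes. Other libraries were alike: the shares were 79.5% and 55.9% in 39 wph replicate 8, and 75.5% and 53.5% in GRZ replicate 3. The lowest shares of members were 26.4% in 39 wph replicate 10 and 28.2% in 5 wph replicate 11. Replicate 12 at 5 wph was the lowest for NCAN at 385 CPM. At 12 wph, replicate 1 was the lowest for HDAC1 at 122 CPM and MCM2 at 16.1 CPM, replicate 3 the lowest for ENO2 at 125 CPM, and replicate 5 the highest for CNP at 57.0 CPM. At 39 wph, replicate 8 was the highest for DNM1 at 264 CPM and replicate 10 the lowest for ENO2 at 97.0 CPM. Replicate 4 of GRZ was the lowest of its group for HSPD1 at 103 CPM, QARS at 39.3 CPM and ELOVL1 at 38.1 CPM. Over all 220 members, such flags fell on replicate 4 of GRZ as the lowest 9 times, on replicate 14 at 5 wph as the highest 7 times and on replicate 1 at 12 wph as the lowest 6 times.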

How the results depend on the processing

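The number of members was 201 with TMM scaling (192 shared with the 220) and 201 with DESeq2 size factors (189 shared). It was 198 with a floor of 10 CPM and 224 with 1 CPM or none. When 1 of the 12 MZM-0410 libraries was left out it was 234 to 330, the most without 12 wph replicate 1. Leaving out a library loosens the order of the groups, so apart from the floor the number can only rise, and all 220 stayed members each time. TMM scaling moved the median of all genes by at most 0.02 log2 units. The smallest step of a member between ages was -0.06 log2 units. A shift of that size could therefore not reverse a member, and all 220 kept their direction. Members lower in GRZ than at 5 wph numbered 18 to 32 over the leave-one-out fits and members higher 1 to 8, and the latter were 3 with DESeq2 and 3 with all 16 libraries in 1 fit. Against 12 wph, leaving out 1 library gave 28 to 99 higher and 0 to 3 lower. All 16 libraries in 1 fit gave 75 higher, and the lower members were 2 with DESeq2 and 2 without a filter. Against 39 wph it was 167 to 190 higher and 0 lower. GRZ and 12 wph share the replicate numbers 1, 3 and 4, whose deviations had correlations of -0.09, 0.02 and 0.00 (Pearson, across genes). These values gave no sign that the numbers pair the fish, but with so few libraries they cannot exclude it. With the replicate block 9 members were higher and 0 lower, and the same 6 libraries with no block gave 17 and 0. For 68 members given values above, 2491 alternative values were classed as unchanged, 171 lost the call, 58 gained it and none of the called ones reversed. For comparisons with GRZ, unchanged means the same call, and includes changes of sign where neither fit gave a call. For the age differences with TMM scaling, which carry no call, it means a shift below the SD of log2 CPM at 5 wph.

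The MZM-0410 libraries of each comparison with GRZ entered the choice of the members. Strain was sampled at 1 age, and hatch, rearing and library batch are not in the labels, so they and strain cannot be told apart. Depth limits the members with few reads: the lowest count of a member in any library was 1.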

Other observations

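Among genes just outside the falling set, NOTCH1 had means of 152 CPM at 5 wph, 124 CPM at 12 wph, 107 CPM at 39 wph and 165 CPM in GRZ.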
